A study of Mus musculus with 24 samples.

Results

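Oxidative phosphorylation genes were followed through the day in mouse RPE, the retinal pigment epithelium, a sheet of pigmented cells that supports the photoreceptors. The set held 96 of the 54532 genes counted. It was made of the 13 protein-coding genes of the mitochondrial genome and of 83 protein-coding nuclear genes chosen by symbol alone: the Nduf subunits of complex I, the Sdh subunits of complex II, the Uqcr subunits of complex III, the small Cox subunits of complex IV and the Atp5 subunits of complex V. All animals were wild-type 129S1/SvlmJ mice that carry Leu450 in Rpe65, and they lived under 12-h cyclic light on a standard diet. RNA was taken from RPE 0, 1, 3, 5, 6, 9, 15 and 16 h after light onset, which the series places at 7 am, with 3 mice at each time and 24 libraries in all. Times from 1 to 9 h lay in the light phase (day, 15 libraries) and 15 and 16 h in the dark phase (night, 6 libraries). No treatment or genotype differed between the groups, and the labels used here state neither age nor sex.

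Mitochondria make ATP by passing electrons from NADH and succinate along complexes I to IV to oxygen, and complex V uses the resulting proton gradient. Complexes I, III, IV and V join subunits from 2 genomes: the mitochondrial genome, transcribed as long polycistronic RNAs that are then cut into single messengers, and the nucleus, whose products are imported. Complex II is encoded by the nucleus alone. RPE cells hold many mitochondria and are known to burn lactate and fatty acids, leaving glucose for the photoreceptors.

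Of the 96 members, 93 passed the filter on low counts, all 13 mitochondria-encoded and 80 nuclear. Those that did not were Cox7b2 and Cox8c, subunit isoforms known from testis, and a second gene identifier for Atp5o that had no counts. Levels are given as CPM, counts relative to the total of the library after scaling by TMM (trimmed mean of M-values). Cox7b2 reached at most 0.248 CPM and Cox8c was at 0 in every library. The naming rule left out some subunits, such as Cox4i1 and Ndufab1, which enter a separate list near the end.

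Libraries held 14073440 to 17492470 counts. The labelled tissue was borne out by the sum of its markers, 40500 to 56370 CPM in 22 libraries, to which Ttr and Rgr gave most. All 12 were found, but Best1 only at 2.42 to 5.21 CPM. Other cells were present. Fibroblast and mural cell markers summed to 1459 to 2116 CPM and macrophage markers to 771 to 926.5 CPM in the 22 libraries. Schwann cell markers summed to 352.7 to 913.3 CPM and choroid endothelium markers to 286.3 to 737.3 CPM. Rod markers summed to 2479 to 3870 CPM at 0 h and to 417 to 2199 CPM at the other times in these libraries, so some photoreceptor RNA was present. The third mouse of 6 h and the third of 15 h gave libraries unlike the other 22. Red blood cell markers summed to 3326 and 8767 CPM in them, against 399.5 to 1925 CPM in the others, and RPE markers to 61430 and 127300 CPM. RPE markers did not all go one way. Ttr, a carrier of thyroxine and retinol, was at 25790 and 64610 CPM against 12620 to 19040 in the others. Stra6, a retinol transporter, was at 1548 and 1225 CPM against 1795 to 2569, and the transcription factor Otx2 at 431 and 321 CPM against 452 to 692. Tyrp1, a melanin enzyme, was at 802 CPM in the library of 15 h, under the 1171 to 2337 CPM of the 22. Skeletal muscle markers summed to 431 and 2557 CPM, against 205.5 to 1576 CPM. Each comparison is given for all 24 libraries and for the 22. In RNA from whole tissue, fewer cells of a type and less RNA per cell cannot be told apart.

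The reads of several mitochondria-encoded genes can also come from the nucleus. A stretch of chromosome 1 carries a near copy of the mitochondrial genome from mt-Co1 to mt-Nd4, annotated as a row of unprocessed pseudogenes in GENCODE vM21 (GRCm38, the build called mm10). To show how close the copies are, the sequence of mt-Nd4l, a small membrane subunit of complex I, is printed with the 3 bases beyond the end of its annotated copy in capitals. The copy, Gm10222 (chr1:24612407-24612700, minus strand), equals the remaining 294 bases with 0 mismatches. The first bases of mt-Nd3, another complex I subunit, and of its copy follow, with the single base that differs over 345 compared in capitals.
mt-Nd4l (chrMT:9877-10173, plus strand): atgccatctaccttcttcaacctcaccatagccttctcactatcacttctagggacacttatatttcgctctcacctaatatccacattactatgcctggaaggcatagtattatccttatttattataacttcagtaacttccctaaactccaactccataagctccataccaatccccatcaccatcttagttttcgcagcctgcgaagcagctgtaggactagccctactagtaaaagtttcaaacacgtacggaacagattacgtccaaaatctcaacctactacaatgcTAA
mt-Nd3 (from chrMT:9459-9806, plus strand): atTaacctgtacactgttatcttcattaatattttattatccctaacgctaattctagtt
Gm28438 (from chr1:24612775-24613119, minus strand): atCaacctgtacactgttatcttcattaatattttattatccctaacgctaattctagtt

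Among stretches of 50 bases, those found in another annotated gene made up 100% for mt-Co2, 99.9% for mt-Co3, 99.5% for mt-Atp6, 98.8% for mt-Nd4l and 98.0% for mt-Nd3. For mt-Nd4 and mt-Co1 the shares were 62.2% and 51.1%, for mt-Nd2 and mt-Nd5 8.2% and 7.6%, and for mt-Nd1, mt-Cytb, mt-Nd6 and mt-Atp8 0%. The levels of the first 5 genes are therefore uncertain, since no source used here states how reads shared by a gene and its copy were counted. mt-Atp8 lies inside the span copied on chromosome 1, but no copy of it is annotated there. Its 0% can thus miss a copy, and its level is uncertain as well.

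The 13 mitochondria-encoded genes together took far more of the counts than the 83 nuclear ones. In the 22 libraries they summed to 36620 to 66560 CPM (median 48760), against 6926 to 8480 CPM (median 7598) for all 83 nuclear genes. The ratio of the sums ran from 4.70 to 9.27, with a median of 6.37. The nuclear sum was the steadier, with a coefficient of variation of 5.08% over these libraries, against 14.8% for the mitochondrial sum.

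Per kb of gene length, as the deposited table gives it, the mitochondria-encoded levels split into a high and a low group. The mean over 22 libraries was 12650 CPM per kb for mt-Co1, the catalytic core of complex IV, and 7631 for mt-Cytb, the cytochrome b of complex III. Complex I subunits mt-Nd1, mt-Nd5, mt-Nd6, mt-Nd2 and mt-Nd4 followed at 5433, 3692, 3631, 2801 and 2685 CPM per kb. Far lower stood mt-Co2 at 229, the ATP synthase subunit mt-Atp6 at 148, mt-Co3 at 100, mt-Nd4l at 54.3, mt-Nd3 at 7.33 and mt-Atp8 at 5.03 CPM per kb. This low group holds the 5 genes with near-complete annotated copies and mt-Atp8, which lies between mt-Co2 and mt-Atp6 and shares 43 bases with mt-Atp6.

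The copies held a sizeable part of what was counted for each pair, but gene and copy were both far below the high group. The means over 22 libraries were 156.6 CPM for mt-Co2 and 94.9 for its copy. They were 78.5 for mt-Co3 and 54.7 for its copy, against 19540 CPM for mt-Co1. Of the CPM of each pair, the mitochondrial member held 62.3% for mt-Co2, 60.4% for mt-Nd4l, 58.9% for mt-Co3, 58.2% for mt-Atp6 and 14.6% for mt-Nd3. For mt-Co1 and mt-Nd4, whose copies on chromosome 1 are partial, it held 99.8% and 99.2%. How levels and differences of the low group would stand with shared reads assigned otherwise was not tested.

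**Figure D1:**
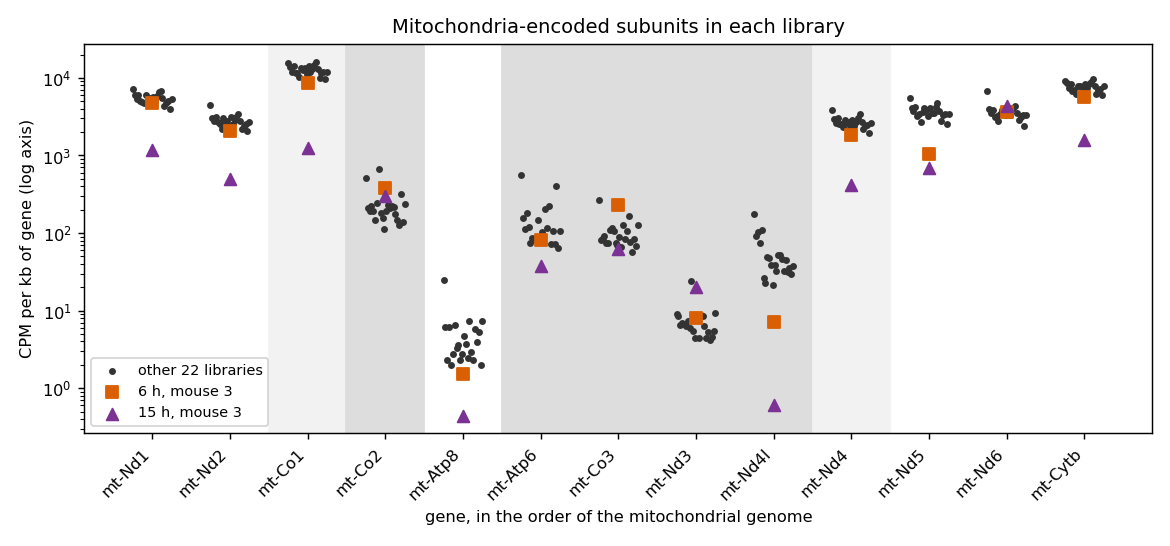
Level of each mitochondria-encoded gene in every library, as CPM per kb of gene on a log axis, in genome order. Dark grey bands mark genes with over 90% of their 50-base stretches in another annotated gene and light grey bands those with 51.1% and 62.2%. Dots are 22 libraries, the square is mouse 3 of 6 h and the triangle mouse 3 of 15 h, which lies below all dots for 9 of the 13 genes.

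Among nuclear members, levels per kb spanned a wide range within each complex. In complex I the highest was Ndufb11 at 158.9 CPM per kb and the lowest Ndufb2 at 2.22, both accessory subunits. In complex II, Sdhd and Sdha stood at 74.3 and 59.3 and Sdhb and Sdhc at 42.6 and 31.9. In complex III the highest was Uqcr10 at 148.9 and the lowest Uqcrc2, a core protein, at 38.2. In complex IV the lowest was Ndufa4l2 at 4.50, and the highest was Cox8a at 581 CPM per kb, also the highest of all nuclear members. In complex V, Atp5a1 and Atp5b, the subunits of the catalytic head, stood at 238 and 186 and Atp5s, a coupling factor, at 8.76. The median over the 80 nuclear members was 42.7 CPM per kb, against 3.56 over all 18065 genes tested.

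Nuclear members varied little between mice of the same time. The median SD of log2(CPM + 0.5) within a time was 0.126 over the 80, close to the 0.121 of all tested genes with at least 10 CPM. Over the 13 mitochondria-encoded genes it was 0.261, from 0.164 for mt-Cytb and 0.173 for mt-Co1 to 0.857 for mt-Atp6. The steadiest tested nuclear member was Atp5a1 at 0.060, with 697 to 834 CPM in the 22 libraries, and the most variable was Cox6a2 at 0.566.

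Across the 8 times the nuclear sum varied little in the 22 libraries. It was 7182 to 7579 CPM at 0 h, 6926 to 8480 CPM in the day and 7234 to 8213 CPM at night. The mitochondrial sum was 47560, 54220 and 66560 CPM in the 3 mice of 0 h, 39870 to 62140 CPM in the 14 day libraries and 36620 to 47140 CPM in the 5 night libraries. Every night library thus lay below every 0 h library, while day and night overlapped. By time, the mean of the mitochondrial sum was highest at 9 h (56330 ± 6115 CPM, SD, n = 3) and 0 h (56110 ± 9640) and was 43360 ± 5851 at 16 h. Rod markers were also highest at 0 h, as given above, and summed to 449.3, 1029 and 452 CPM in the mice of 9 h. Their part in the mitochondrial sum was not tested.

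**Figure D2:**
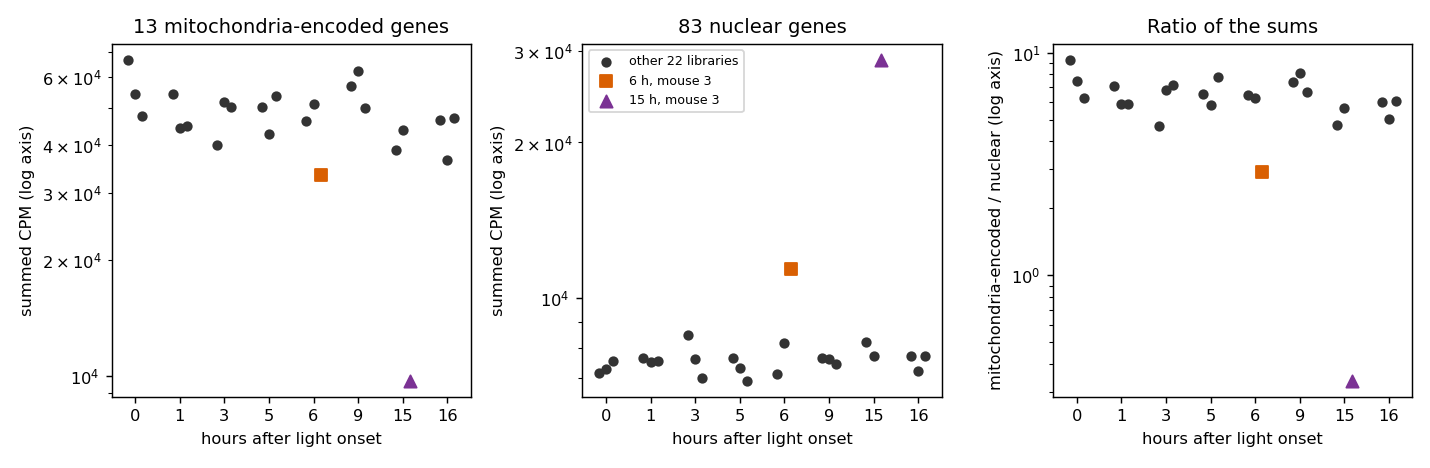
Summed CPM of the mitochondria-encoded and of the nuclear genes, and the ratio of the sums, in each library by hours after light onset (log axes, points of a time offset by mouse number). In 22 libraries (dots) the nuclear sum keeps between 6926 and 8480 CPM. Mouse 3 of 6 h (square) and mouse 3 of 15 h (triangle) lie outside both ranges, above for nuclear and below for mitochondria-encoded genes.

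Variation over the 8 times was tested for every gene of the table. In all 24 libraries 0 of 93 members varied over time (edgeR quasi-likelihood F test with Benjamini-Hochberg adjustment over all genes), against a background of 195 called genes of 18065, or 1.08%. The lowest adjusted p was 0.277 among mitochondria-encoded members and 0.0622 among nuclear members, for Atp5e. At an unadjusted p under 0.05 there were 1 and 49. DESeq2 called 30 nuclear members (background 10.7%) and limma-voom with sample quality weights called 30 nuclear and 2 mitochondria-encoded ones (background 48%). With the mean level of rod markers as a covariate edgeR called 2 nuclear members, Atp5e and Ndufa2 (background 1.42%).

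In the 22 libraries 2 of 93 members varied over time, against a background of 2870 of 18388 genes, or 15.6%. The share of members was thus far under that of all genes. Both were complex I subunits: mt-Nd4l and Ndufa12. DESeq2 called 9 on the same libraries (background 26.3%), adding mt-Nd1, mt-Co1, Ndufs1, Ndufa4l2, Cox6a2, Atp5l and Atp5mpl.

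mt-Nd4l (ENSMUSG00000065947) was high at light onset. It stood at 52.9, 27.6 and 30.8 CPM in the mice of 0 h and at 21.9, 32.4 and 7.79 CPM at 1 h. In the other 16 of the 22 libraries it lay between 6.38 and 15.7 CPM. The largest log2 difference from 0 h was -1.92 (adjusted p = 0.0381, edgeR). The 3 mice of 0 h did not overlap with those of 3 h or later. Its copy Gm10222 was at 13.6, 15.0 and 11.7 CPM at 0 h and did not pass in the same test (adjusted p = 0.188). Rod marker sums were highest at 0 h too, and with their level as a covariate the call ended (adjusted p = 0.189). Rod markers summed to 3870, 2500 and 2479 CPM in the mice of 0 h and to 656.9, 1351 and 1585 CPM in those of 1 h. The part of rod RNA in the level of mt-Nd4l was not tested. Leaving out each of the 22 libraries in turn, the call held in 7 of 22 cases, with adjusted p from 0.00582 to 0.149. It was kept when 1 mouse of 3 h, the second or the third of 1 h, the second of 6 h or the third of 9 h was left out, and ended when any of the others was. In all 24 libraries the difference was -2.25 (adjusted p = 0.277), with 2.14 CPM in mouse 3 of 6 h and 2 counts in mouse 3 of 15 h.

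Ndufa12 (ENSMUSG00000020022, chromosome 10, 94198720 to 94221443), an accessory subunit needed late in complex I assembly, was highest at 16 h, with 18.4, 14.3 and 30.2 CPM. Elsewhere in the 22 libraries it lay between 6.82 and 17.4 CPM, so 1 of the 3 mice of 16 h overlapped with the rest. The largest difference from 0 h was 0.84 (adjusted p = 0.0421). The call held in 6 of 22 cases with 1 library left out (0.00405 to 0.0984): without the first or second mouse of 0 h or 15 h, the third of 1 h or the second of 16 h. It ended when any of the others was left out, and also with the rod covariate (adjusted p = 0.0689). In mouse 3 of 15 h it stood at 92.0 CPM.

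Next to the threshold lay Ndufa4l2 (adjusted p = 0.0537), a relative of the complex IV subunit Ndufa4 that is induced by low oxygen. It was at 9.05, 7.07 and 5.32 CPM at 3 h and between 2.17 and 7.94 CPM elsewhere in the 22 libraries. The mice of 3 h overlapped with those of other times. It passed in 6 of 22 cases with 1 library left out (0.0333 to 0.142). Ndufa4 itself did not pass (0.264), at 131 to 180 CPM.

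A daily shape was tested next, as a cosine of 24 h period. In all 24 libraries 0 of 93 members had a 24 h component, against 302 of 18065 genes, or 1.67%, with 1 mitochondria-encoded and 40 nuclear members at an unadjusted p under 0.05. DESeq2 called 3 nuclear members (background 4.42%) and limma-voom 1 (background 8.7%). With the rod covariate edgeR called 35 nuclear members with a 24 h component, against 6.75% of all genes. In the 22 libraries the same covariate gave 0 called members. Without a covariate edgeR called 0 of 93 in the 22 libraries, against 1126 genes or 6.12%, and 1 mitochondria-encoded and 6 nuclear members had an unadjusted p under 0.05. DESeq2 called 2 there, mt-Nd4l and Cox6a2 (background 10.5%).

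Fitted ratios of peak to trough were small for most members. In the 22 libraries the median was 0.10 on the log2 scale over nuclear members and 0.27 over mitochondria-encoded ones, against 0.25 over all genes. The largest were those of Cox6a2 (1.58 ± 0.37, jackknife SE, peak at 23.5 h, adjusted p = 0.0602) and mt-Nd4l (1.54 ± 0.56, peak at 22.6 h, adjusted p = 0.0824). Samples cover part of 1 day, with none between 9 and 15 h or after 16 h, so these peaks lie in an unsampled span.

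Night was then set against day, which gives each member a signed difference. In all 24 libraries 0 of 93 members were called, against 251 genes or 1.39% (159 higher, 0.88%, and 92 lower, 0.509%). The medians lay on opposite sides of 0. They were 0.46 over nuclear members, of which 76 of 80 were positive, and -0.40 over mitochondria-encoded members, of which 3 of 13 were positive. The median over all genes was -0.005. At an unadjusted p under 0.05 there were 52 nuclear and 2 mitochondria-encoded members. DESeq2 called 3 nuclear members (background 3.69%), and limma-voom with sample weights called 1 nuclear and 4 mitochondria-encoded ones (background 13.9%). With the rod covariate edgeR called 1, Atp5e (background 2.81%).

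With mouse 3 of 6 h and the one of 15 h left out the nuclear difference was near 0. The median over nuclear members was 0.02 with 49 of 80 positive, and over mitochondria-encoded members -0.26 with 2 of 13 positive. The median over all genes was -0.008. Again 0 of 93 members were called, against 852 genes or 4.63% (505 higher, 2.75%, and 347 lower, 1.89%). At an unadjusted p under 0.05 there were 6 mitochondria-encoded members, mt-Nd1, mt-Nd2, mt-Nd4, mt-Nd5, mt-Cytb and mt-Co1, all with a value below 0, and 1 nuclear member, Atp5e, with a value above 0.

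Those 6 genes are the ones of the high group on the plus strand, and their differences lay close together. mt-Nd1 (ENSMUSG00000064341, MT 2751 to 3707) was at 4189, 4539, 4776, 3769 and 5053 CPM in the 5 night libraries, which overlapped with the 4480 to 6459 CPM of the 14 day libraries. Its log2 difference was -0.26 (SE 0.089, adjusted p = 0.112). mt-Co1 (ENSMUSG00000064351, MT 5328 to 6872) had -0.24 (SE 0.084, adjusted p = 0.122) and mt-Cytb (MT 14145 to 15288) -0.20 (SE 0.078, adjusted p = 0.16). DESeq2 called mt-Nd1 and mt-Co1 on the 22 libraries (background 7.44%). mt-Nd6, the only member on the opposite strand, had -0.26 (SE 0.138, adjusted p = 0.358). The kit marks no strand, so counts of mt-Nd6 can include RNA from the plus strand. The positive values were those of mt-Atp6 (0.13) and mt-Atp8 (0.39), both of the low group. Members on the plus strand share a polycistronic precursor, and all 13 values come from the same libraries, so they are not independent of each other.

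**Figure D3:**
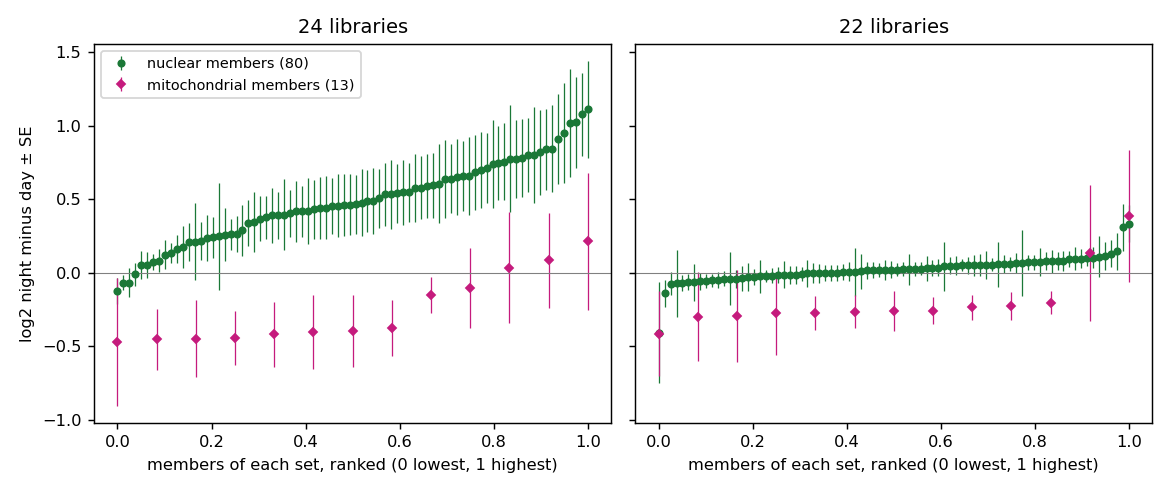
Log2 difference of night (15 and 16 h) minus day (1 to 9 h) ± SE for each tested member, ranked within its set, in all 24 libraries (left) and without mouse 3 of 6 h and mouse 3 of 15 h (right). Nuclear members (circles) have a median of 0.46 on the left and 0.02 on the right. Mitochondria-encoded members (diamonds) have -0.40 and -0.26.

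Single night libraries decided the counts of nuclear calls in the full set. Without mouse 1 of 15 h edgeR called 32 nuclear members over time and 34 for night against day (background 4.62% and 5.95%), and without mouse 2 of 15 h 39 and 43 (background 4.67% and 6.34%). For the 24 h component 0 members were called in both cases (background 1.55% and 1.41%). Without mouse 3 of 15 h the counts over time and for night against day were 0 and 0 (background 6.6% and 2.54%), and Cox6a2 was called for the 24 h component (background 4.29%). Leaving out mouse 3 of 6 h brought in Ndufa2 over time (background 1.67%) and Atp5e for night against day (background 1.73%), with 0 members for the 24 h component (background 1.93%).

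The widest contrast between the genomes was found in the library of mouse 3 of 15 h. Its nuclear members summed to 28870 CPM and its mitochondria-encoded ones to 9710 CPM, a ratio of 0.336. As shares of all counts, which do not depend on scaling, the nuclear members held 2.10% against 0.703% to 0.873% in the 22, and the mitochondria-encoded ones 0.708% against 3.77% to 6.64%. Mouse 3 of 6 h lay on the same side for both, with 11400 and 33310 CPM, a ratio of 2.92, and shares of 1.10% and 3.22%. These values describe 2 single libraries.

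Nearly every nuclear subunit took part in mouse 3 of 15 h. The level was above the mean of the 22 libraries for 77 of 80 nuclear members, and above the highest of the 22 for 77. Log2 deviations had a median of 2.12, against -0.157 over all genes tested and 2.32 over 82 cytosolic ribosomal protein genes. The largest were those of Ndufa2 (3.69), Atp5k (3.63) and Ndufb7 (3.47). Atp5k, the e subunit of complex V, was at 319 CPM there against 7.61 to 33.4 CPM in the 22. Cox8b, a muscle form, was at 391.9 CPM against 28.2 to 60.6. Skeletal muscle markers summed to 2557 CPM in this library, above the 205.5 to 1576 CPM of the 22, and their part in the level of Cox8b was not tested. In mouse 3 of 6 h 78 of 80 were above the mean and 72 above the highest, with a median of 0.72 (all genes 0.008, ribosomal protein genes 0.872). Ndufc2 led there with 1.21.

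Complex II stood out among the nuclear sets in mouse 3 of 15 h. The medians were 2.18 for complex I, 2.20 for III, 2.09 for IV and 2.18 for V, but 0.38 for the 4 Sdh genes. Sdha, the flavoprotein, was at 280 CPM against 222 to 273 in the 22, Sdhc at 140 against 88.5 to 116 and Sdhd at 114.3 against 79.6 to 112. Sdhb, the iron-sulfur subunit, was at 299 against 86.2 to 108. With totals left unscaled, Sdha, Sdhc and Sdhd fell on the other side of 0 (-0.28, -0.04 and -0.15) and complex II held 0.0608% of counts, within the 0.0506% to 0.0621% of the 22. The median of all genes was then -0.572, and 74 of 80 nuclear members were above the mean, with a median of 1.65. A test between complexes within 1 library was not made.

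The nuclear members that lay below the mean in mouse 3 of 15 h were Uqcrc2, Ndufs1 and Atp5s. Uqcrc2 (ENSMUSG00000030884), a core protein of complex III, was at 52.6 CPM against 86.7 to 110 in the 22, and at 80.3 in mouse 3 of 6 h, also below that range. Ndufs1, the largest subunit of complex I and the longest gene of the set at 8086 bases, was at 65.3 CPM against 66.7 to 89.9. Atp5s was at 17.0 CPM, within its range of 14.6 to 22.8.

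Gene length moved with the deviations. Across the 80 nuclear members, which are not independent replicates, Spearman's rho of deviation with length was -0.41 for mouse 3 of 15 h and -0.46 for the one of 6 h, and across all genes tested -0.36 and -0.42. Nuclear members are short, with a median of 1578 bases against 3796. Set beside genes of their own length they lay higher, but these classes were not matched for level. Between 1000 and 2000 bases the median level was 67.8 CPM over nuclear members and 4.33 CPM over all genes. Between 1000 and 2000 bases the median deviation in mouse 3 of 15 h was 2.31 over 30 nuclear members and 0.63 over 2460 genes, and above 4000 bases 1.44 over 10 and -0.50 over 8560. Mitochondria-encoded members have a median of 784 bases, and 10 of 13 lay below the mean. Deviations in the pair of libraries went together across nuclear members (rho 0.63). Which property of the RNA or library goes with this pattern was not tested.

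**Figure D4:**
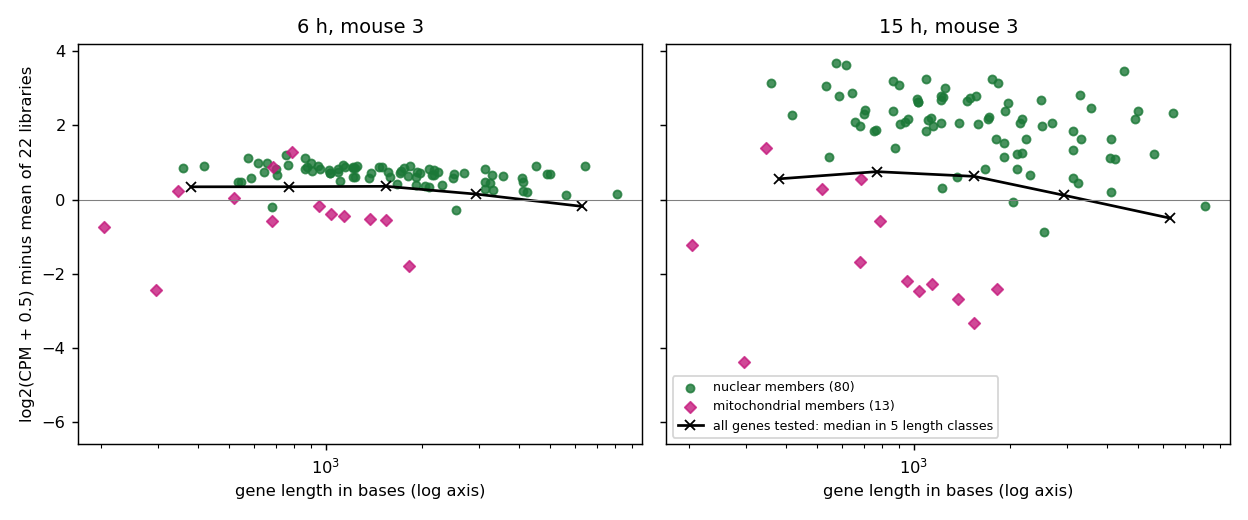
Deviation of each member from the mean of 22 libraries on the log2(CPM + 0.5) scale against gene length (log axis), in mouse 3 of 6 h (left) and mouse 3 of 15 h (right). Circles are 80 nuclear and diamonds 13 mitochondria-encoded members, and crosses joined by a line are medians of all genes tested in 5 length classes. Most nuclear members lie above the line, with medians of 0.72 and 2.12.

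Mitochondria-encoded genes did not move as a block in these libraries. In mouse 3 of 15 h, mt-Co1 was at 1910 CPM against 15030 to 24990 in the 22, a level 10.2-fold under their mean. mt-Nd4, mt-Nd2, mt-Nd5, mt-Cytb and mt-Nd1 deviated by -2.69, -2.48, -2.40, -2.27 and -2.19. mt-Nd6, whose counts can hold RNA of either strand, did not share in this. It was at 2259 CPM against 1263 to 3498, a deviation of 0.29 that became -0.19 with totals left unscaled. mt-Nd4l and mt-Atp8 had 2 counts and 1 count there. mt-Co2 and mt-Nd3 deviated by 0.55 and 1.40, and mt-Nd3 was at 7.03 CPM against 1.46 to 8.50. Both mitochondrial ribosomal RNAs together were at 1689 CPM, above the 580 to 1445 CPM of the 22, but at 0.123% of all counts they lay within the 0.0586% to 0.144% of the 22.

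In mouse 3 of 6 h 9 of 13 mitochondria-encoded genes lay below the mean of the 22 and 6 below their range. mt-Nd5 (ENSMUSG00000064367, MT 11742 to 13565) was at 1908 CPM against 4666 to 10150 in the 22, 3.53-fold under their mean. mt-Nd1, the first gene in the order of the map, was at 4599 CPM against 3769 to 6983, and mt-Nd6 at 1895. mt-Nd4l was at 2.14 CPM, under the 6.38 to 52.9 CPM of the 22. The others below the range lay nearer to it: mt-Co1 was at 13270 CPM (lowest of the 22 15030), mt-Cytb at 6424 (6834), mt-Nd4 at 2541 (2716) and mt-Atp8 at 0.315 (0.400). mt-Co3, at 181 CPM, lay within the range of 44.4 to 209.8.

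Several complex IV subunits come in a muscle form and a common form. Cox6a2, Cox7a1 and Cox8b are the forms known from heart and skeletal muscle, and Cox6a1, Cox7a2 and Cox8a those of most other tissues. Over the 22 libraries Cox6a2 was at 2.00 to 14.3 CPM against 142.5 to 182.5 for Cox6a1, and Cox7a1 at 1.35 to 3.83 against 56.3 to 78.1 for Cox7a2. Cox8b reached 28.2 to 60.6 CPM against 261 to 356 for Cox8a. Per kb, Cox8b at 124 CPM was above the median nuclear member.

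Cox6a2 went with skeletal muscle markers from library to library. All 9 markers were found and none was at 0 in all libraries, and they summed to 205.5 to 1576 CPM in the 22. Over these 22 libraries Pearson's r of Cox6a2, as log2(CPM + 0.5), with log2 of the sum was 0.94 and Spearman's rho 0.91 (permutation p = 1e-05 for each, the smallest that 100000 resamples can give, adjusted p = 6e-05 over 6 relations). Without the 2 libraries farthest from the median r was 0.93. The highest values of Cox6a2, 14.3 and 11.8 CPM, came from mouse 2 of 3 h and mouse 2 of 1 h, whose marker sums of 1402 and 1576 CPM were also the highest. The part of muscle RNA in the fitted daily shape of Cox6a2 was not tested.

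Correlations were lower for the other muscle forms. Cox7a1 had an r of 0.59 (adjusted permutation p = 0.013) and a rho of 0.49 (adjusted p = 0.0621), and r was 0.44 without the 2 farthest libraries. Cox8b had 0.11 (adjusted p = 0.725). Cox6a1, Cox7a2 and Cox8a had -0.16, -0.15 and -0.08. The difference between these correlations was not tested.

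**Figure D5:**
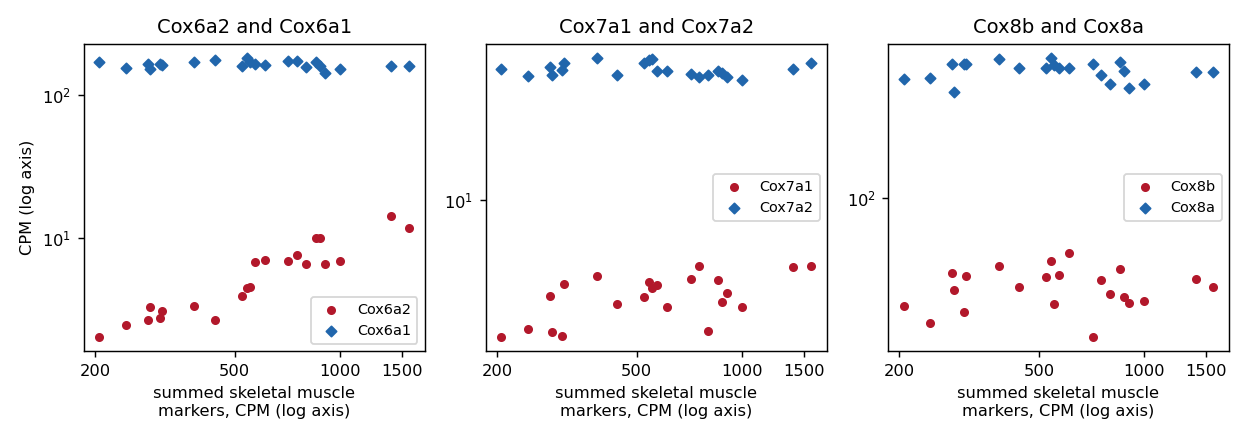
CPM of the muscle form (circles) and of the common form (diamonds) of 3 complex IV subunits against the summed CPM of 9 skeletal muscle markers, in 22 libraries (log axes). Cox6a2 climbs with the markers (r = 0.94). Cox8b has r = 0.11 and the common forms -0.16 to -0.08.

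Other subunit families had no called member in the 22 libraries. Of the 3 genes for the c subunit of the ATP synthase ring, whose mature proteins are alike, Atp5g3 stood at 74.2 CPM per kb, Atp5g2 at 53.5 and Atp5g1 at 18.8, with adjusted p over time of 0.311, 0.139 and 0.427. Atp5g2 shares 38.3% of its 50-base stretches with other annotated genes and its counts are less certain. Cox6b1 and its testis-linked relative Cox6b2 stood at 120 and 20.7 CPM per kb. Of 83 nuclear members 20 share over 10% of such stretches with another annotated gene, among them Ndufa12 with 17.7%.

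Nuclear subunit genes are known targets of NRF-1, GABP and the coactivator PGC-1. The table of RefSeq promoters used here (GRCm38.p6, 250 bases before the start and 50 after) held 68 of the 83 nuclear members. The NRF-1 palindrome, which reads the same on both strands and stands in capitals in the sequences that follow, was found in 5 of 68 promoters, or 7.35%, and in 1.07% of the promoters of all 27025 genes. The members were Atp5g2, Atp5k, Cox6a1, Ndufa11 and Uqcrc1. The ETS core CCGGAAGT, bound by GABP among others (both strands), was found in 7.35% of members and 4.31% of all, and TATAAA in 10.3% and 15.7%. The 100 bases before the start are shown for the 3 members with the palindrome in this span, with the palindrome in capitals.
Atp5g2 (chr15:102671048-102671147, minus strand): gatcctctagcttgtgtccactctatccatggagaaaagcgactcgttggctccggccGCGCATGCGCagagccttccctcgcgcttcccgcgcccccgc
Atp5k (chr5:108434400-108434499, minus strand): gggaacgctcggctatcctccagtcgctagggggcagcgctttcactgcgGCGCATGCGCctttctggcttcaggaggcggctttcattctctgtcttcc
Ndufa11 (chr17:56717662-56717761, plus strand): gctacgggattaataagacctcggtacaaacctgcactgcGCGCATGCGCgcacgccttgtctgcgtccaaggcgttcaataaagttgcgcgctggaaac

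The palindrome begins 42, 50 and 60 bases before the start in these members. Their deviations in mouse 3 of 15 h were 0.83 for Atp5g2, 3.63 for Atp5k and 3.25 for Ndufa11. Cox6a1 and Uqcrc1, the others with the palindrome, deviated by 2.30 and 1.64. Whether the palindrome goes with the deviations was not tested. None of these genes was called over time in the 22 libraries.

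Lists of genes around the pathway were read in the same fits. Of 7 subunits and close partners outside the naming rule 0 were called in either set of libraries. Of all genes, 1.08%, 1.67% and 1.39% were called in the 24 libraries over time, for the 24 h component and for night against day. In the 22 libraries the shares were 15.6%, 6.12% and 4.63%. Cox4i1, the common form of the largest nuclear subunit of complex IV, was at 279 to 348 CPM in the 22, at 568 CPM in mouse 3 of 6 h and at 1590 CPM in mouse 3 of 15 h. Of 44 assembly factors tested 1 was called, under the shares of all genes in the 22 libraries over time and for 24 h. It was Coa7, which acts in complex IV assembly. It had a 24 h component in the 24 libraries (adjusted p = 0.0329) and in the 22 (log2 ratio 0.63, peak at 21.4 h, adjusted p = 0.0044), and varied over time in the 22 (0.0281). It was at 9.11, 10.02 and 8.60 CPM at 0 h and at 6.38, 6.46 and 6.65 at 9 h, with no overlap. Its 24 h call in the 24 libraries held in 16 of 24 cases with 1 library left out (0.0137 to 0.0874) and ended when mouse 1 or 2 of 0 h or any 1 mouse of 1 h or 9 h was left out. It also ended without all mice of 0 h (adjusted p = 0.198), with no filter on low counts (0.103) and with the replicate number as a block (0.0534). The call in the 22 held in 22 of 22.

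Of 32 genes of mitochondrial DNA expression and its regulators, 0 were called in the 24 libraries and 3 varied over time in the 22, where 15.6% of all genes did. That count is no more than the background share of all genes. Ppargc1a, the coactivator PGC-1 alpha, was at 58.1, 53.5 and 62.3 CPM at 16 h and at 39.6, 37.3 and 49.1 CPM at 3 h, with no overlap (adjusted p over time 0.00837, edgeR). At 0 h it stood at 56.6, 53.0 and 51.7 CPM. Night and day mice overlapped, with 45.4 CPM in mouse 1 of 15 h and 55.3 CPM in mouse 1 of 6 h. Ppargc1a was higher at night by 0.23 on the log2 scale (adjusted p = 0.0373), a call that held in 12 of 22 cases with 1 library left out (0.00877 to 0.394). It ended without the first or second mouse of 1 h or 3 h, the third of 5 h, the second of 6, 9 or 15 h, or the first or the third of 16 h. Ppargc1b, its relative, was called as well (0.012). Top1mt, the mitochondrial topoisomerase, was at 8.57, 11.2 and 11.8 CPM at 0 h and at 6.88, 5.69 and 6.59 CPM at 9 h. Its adjusted p over time was 0.0215, and its 24 h component had a log2 ratio of 0.77 and a peak at 22.5 h (0.00138). Leaving out any 1 of the 22 libraries kept its 24 h call and the calls of Ppargc1a and Ppargc1b over time. Tfam and Polrmt, which start transcription of mitochondrial DNA, were among the genes not called.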

How the data were processed

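The authors deposited whole-number counts per gene in 1 table with a column for each of 24 mice. STAR, HTSeq and the mm10 build are named per the submitters' processing notes, without roles, versions or settings. Per the labels' protocols the kit marks no strand, so overlapping genes cannot be told apart. Genes were filtered by filterByExpr (minimum count 10), which left 18065 genes and 99.92% of counts, scaled by TMM and tested with edgeR 4.0.16 in R 4.3.3: an F test over time, an F test of 24 h cosine and sine terms, and night against day. P-values were adjusted over all genes, with a threshold of 0.05. For the 22 libraries, filter (18388 genes) and scaling were redone. DESeq2 1.42.0 and limma 3.58.1 served as alternatives. The tests were tested on simulated data. Of 276 pairs of libraries none differed by less than sampling noise (lowest chi-square per degree of freedom 5.71). Named genes are all mitochondria-encoded members, called members, the 6 nuclear members of smallest p per comparison in the 22 libraries, complex II, isoform families and extremes of level. Those named for their deviation in single libraries were chosen after their values were seen. Members and lists were chosen with earlier results of these data known. The labels call the libraries of a time biological replicates.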

Additional observations from a re-analysis of the deposited data

Results flagged for a closer look

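Among the 6 night libraries, mouse 3 of 15 h lay far from the others in 3 values: the summed CPM of mitochondria-encoded genes (9710, with the nearest other library at 36620), the summed CPM of nuclear genes (28870, nearest 8213) and their ratio (0.336, nearest 4.71). The gap to the nearest library took up 0.719, 0.955 and 0.761 of the whole range of the group. Chance alone marks about 1 group in 20 in this way, but that rate does not apply here, since this library had been set apart before the check. The 3 values also come from the same library and share their counts.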

How the results depend on the processing

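The 24 h component of Coa7, the one call among named genes in 24 libraries, lost its call in 11 of 61 alternatives and had a peak within 6 h of the one given in those that kept it. Values that were not called did change sign: the median nuclear night difference was -0.034 without mouse 3 of 15 h, and the largest difference from 0 h, which may fall at another time, ran from -0.473 to 2.495 for Atp5e, -1.002 to 1.48 for Ndufa4l2 and -1.098 to 0.85 for Ppargc1b. Without mouse 3 of 6 h and mouse 3 of 15 h, edgeR called 2870 genes over time (1 mitochondria-encoded and 1 nuclear member), 1126 with a 24 h component and 852 for night against day, and the median nuclear night difference was 0.02. DESeq2 on 24 libraries called 1930 (30 nuclear), 763 (3 nuclear) and 651 (3 nuclear). limma-voom with sample weights called 8680 (2 mitochondria-encoded, 30 nuclear), 1571 (1 nuclear) and 2505 (4 mitochondria-encoded, 1 nuclear), with a median nuclear night difference of 0.013. The rod covariate gave 2 nuclear members over time, 1220 genes (35 nuclear) with a 24 h component and 508 (1 nuclear) for night. Without 0 h the 24 h count was 138, without 15 and 16 h it held 1 mitochondria-encoded member, and with no filter the night count was 143. On the 22 libraries, over time, for 24 h and for night with its nuclear median, RLE gave 2908 (1 and 1), 1134, 863 and 0.027. Library sizes from nuclear genes gave 2886 (1 and 1), 1097, 846 and 0.022. DESeq2 gave 4455 (3 and 6), 1744 (1 and 1), 1182 (2 mitochondria-encoded) and 0.026. The rod covariate gave 2251 (1 nuclear), 825, 660 and -0.005. Causes were not tested.

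Of 84 same-numbered pairs of mice 20 had a correlation over 0.1 (median 0.015, other numbers 0.005). No such count is given for other pairs, so these values do not settle whether replicate numbers mark pairs or batches. With the replicate number as a block, 143, 266 and 226 genes and 0 members were called in 24 libraries. In the 22 libraries the block gave 2660, 1022 and 793 genes, with 1 nuclear member, Cox6a2, over time and 1 for 24 h, and a median of 0.019.

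Leaving out 1 of 24 libraries gave 118 to 1215 genes over time (0 to 39 nuclear members), 203 to 789 for 24 h (0 to 1 nuclear) and 123 to 1172 for night (0 to 43 nuclear). The median night difference ran from -0.034 to 0.62 over nuclear and from -0.545 to -0.202 over mitochondria-encoded members. Leaving out 1 of 22, an alternative chosen after seeing the data, gave 2211 to 3314 (0 to 1 mitochondria-encoded, 0 to 5 nuclear), 884 to 1208 (0 to 1, 0 to 2) and 364 to 954 (0 and 0), with medians of 0.008 to 0.051 and -0.3 to -0.188. Low-count members such as mt-Atp8 and mt-Nd3 limit what can be seen at this depth.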
